A study of Mus musculus with 8 samples.

Results

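The genes described here are the forkhead factors Foxo1 and Foxo3, the PI3K genes Pik3cd, Pik3r1 and Pik3ap1, the lipid phosphatase Inpp5d and the kinase Akt1, 7 genes taken by name from 21883 mouse protein-coding genes with a RefSeq span. Peaks of 5-hydroxymethylcytosine (5hmC) and the authors' deposited differential regions were placed along each gene's span plus 2 kb on each side, in build GRCm38. The material was genomic DNA of germinal center B cells from the spleen of C57BL/6 mice whose genotype was TET2 wild type (WT) or TET2 knockout (KO), and no treatment was applied. In hMeDIP-seq, fragments that carry 5hmC are pulled down and sequenced, so that peaks mark stretches rich in this base. TET2 is one of the enzymes that make 5hmC by oxidising 5-methylcytosine. Each genotype had 2 pulled-down libraries, which bear the numbers 2 and 3 in the labels and are called KO2, KO3, WT2 and WT3, and the 4 input libraries of the series were not analysed here. The design of the knockout allele, any Cre driver, the age of the animals, their immunization and the gate of the cells are not given in the sources used here. Nothing in the labels says that KO2 and KO3, or WT2 and WT3, are separate animals. Every p-value therefore measures only how far these 4 libraries spread, and that spread may be technical. A lower 5hmC level in every cell and fewer cells that carry 5hmC cannot be told apart in such bulk DNA.

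PI3K is a lipid kinase that acts at the membrane below the B cell receptor and its coreceptors, and the lipid it makes recruits and activates the kinase AKT. AKT phosphorylates the FOXO factors, which then leave the nucleus, so that PI3K activity and FOXO activity oppose each other. In germinal centers FOXO1 is known for maintaining the dark zone program, and the balance between PI3K and FOXO1 is often altered in B cell lymphoma. SHIP1, the product of Inpp5d, removes a phosphate from the PI3K lipid and thereby restrains the pathway.

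The authors called between 270542 and 300950 peaks per library, and these covered between 110.6 Mb (KO3) and 139.3 Mb (WT3). The number of reads per library was not used here, so sequencing depth was not measured. The most frequent local background of the peaks, which is no direct measure of depth, was 11.6 reads in KO2, 10.9 in KO3, 8.66 in WT2 and 11.7 in WT3. KO3 thus had the smallest covered length and the lowest median summit fold enrichment (4.38), and WT2 the lowest background and the highest median fold (5.51). Fold enrichment is the ratio of reads at a peak's summit to the local background of the peak caller. Peak positions and folds are the authors' own. Reads at a summit and local backgrounds were recovered here from the deposited fold and p-value, and were not scaled for sequencing depth. All 7 B cell markers and all 7 germinal center B cell markers looked up had peak-covered bases. So had all but 1 of the 7 markers each of T cells, myeloid cells and plasma cells, the exceptions being Cd8a, Lyz2 and Sdc1. The B cell list held between 52048 covered bases (KO3) and 77893 (WT2), the germinal center list between 27418 (KO3) and 36241 (KO2), the myeloid list between 24227 (KO3) and 31283 (WT3), the plasma cell list between 11367 (KO3) and 17066 (KO2) and the T cell list between 9311 (KO3) and 14619 (WT3). These values describe 5hmC and not expression, and peaks do not show whether Tet2 was transcribed, so they are no check of the genotype labels.

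In the gene bodies of the 7 genes, 5hmC peaks were dense at Foxo1, Pik3ap1, Pik3cd and Inpp5d, nearer the typical gene at Akt1 and Pik3r1 and sparse at Foxo3, in both genotypes. Peaks of the 4 lists were merged into union regions, of which 169 lay in the windows of the 7 genes. Of these, 82 (48.5%) had a peak in all 4 libraries, beside 58.0% of the 148801 union regions in gene windows. A peak in both WT libraries and no KO library was found at 8 regions, and the opposite at 0 regions, beside 2.24% and 1.26% of all genic union regions. A further 20 regions lacked a peak in KO3 alone, as did 5.1% of genic union regions, and the part of the small covered length of KO3 in these counts was not tested. The authors' deposited table of regions enriched in WT cells, called WT-higher here, held 42 regions in the windows of 6 of the 7 genes. All but Akt1 had at least 1, and 28.3% of the 18306 genes with a union region had one. At the level of union regions, 34 of 169 (20.1%) overlapped a WT-higher region of the authors' deposited table, compared with 7.26% of all union regions in gene windows. Foxo1 alone gave 13 of the 34, and this comparison does not take the width of the regions into account. The authors' deposited table of regions enriched in KO cells, called KO-higher, held 0 in these windows, beside 0.104% of genes and 0.00806% of genic union regions. That table holds only 50 regions in all, against 24645 WT-higher regions in the other one.

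None of the 7 genes passed as different between genotypes in covered bases when the 4 libraries were tested as replicates. Covered bases per gene window, scaled to equal totals per library, were fitted with limma over the 13997 genes with a mean of at least 500. No gene passed at an adjusted p of 0.05 (0 lower in KO, 0%; 0 higher in KO, 0%), and 591 genes (4.22%) had an unadjusted p under 0.05. Each of the 7 genes had an adjusted p of 0.9999 by limma. The log2 difference of KO minus WT was below 0 in 6 of them, with a median of -0.23, while 52.3% of all genes tested lay below 0 and their median was -0.01. In 1 gene, Pik3r1, both KO libraries lay below both WT libraries, an arrangement seen in 16.6% of the genes tested. The authors' deposited table and this fit therefore differ in what they list: 42 WT-higher regions on the one hand, and no call on the other. They are not like measures. The fit counts bases under peaks over a whole gene window and does not use peak height, whereas the table scores short stretches on an unstated scale. The table gives no values per library and does not state which libraries were compared.

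**Figure D1:**
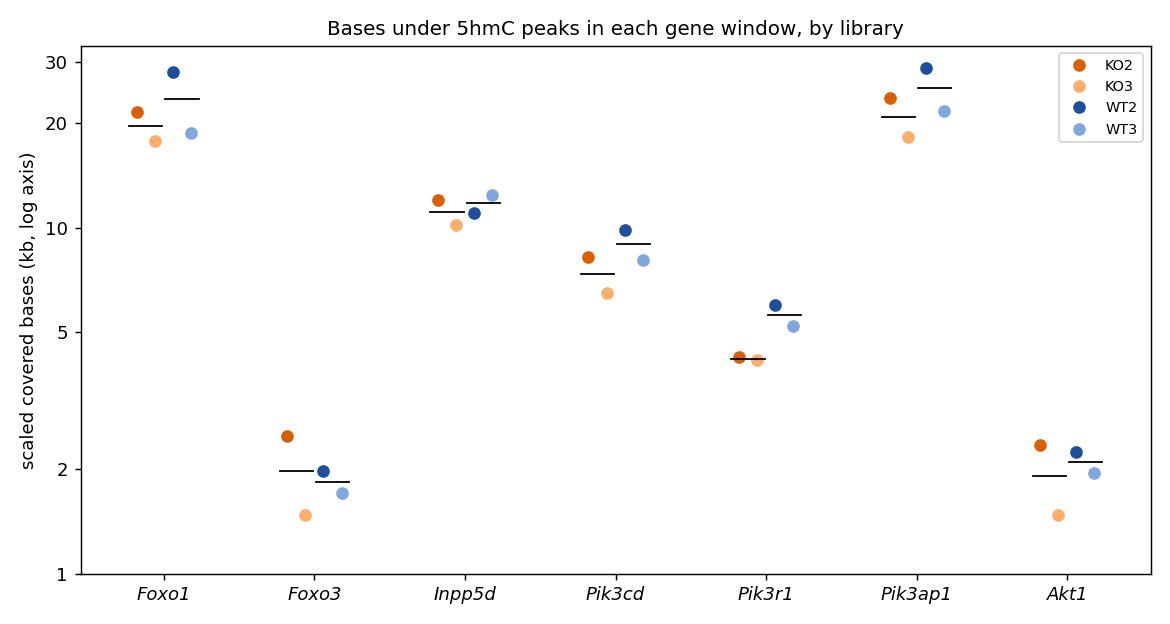
Scaled bases covered by 5hmC peaks (kb, log axis) in the windows of the 7 genes, with a point for each of the 4 pulled-down libraries and a black line at each genotype's mean. Foxo1 and Pik3ap1 lie at the top and Foxo3 and Akt1 at the bottom, and KO and WT points overlap in every gene but Pik3r1.

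Peaks were absent from the start sites examined in all but 1 case. The RefSeq promoter set used here holds 11 start sites for the 7 genes. The windows from 250 bases before to 50 bases after each of these starts were examined. In 10 of these no library had a peak. The exception was the start of Pik3cd at position 149676089 of chromosome 4, where peaks covered 121 bases of the window in KO2, 0 in KO3, 247 in WT2 and 131 in WT3. A WT-higher region of the authors' deposited table covered 77 bases of it. The 5′ end of the Pik3cd span, position 149702566, is not among the starts examined. A WT3 peak (149701806-149702585) covered that position. The matching peaks ended short of it, at 149702506 in KO2, 149702465 in KO3 and 149702533 in WT2. Over all 32851 RefSeq promoter windows, 9.4% had a peak in any library, 4.4% in all 4 libraries, and 0.46% overlapped a WT-higher region of the authors' deposited table. The window of Pik3cd is printed together with those of Foxo1 and Inpp5d, neither of which had a peak, because the set holds a CpG-rich window with 5hmC, a CpG-rich window without and a CpG-poor window without. Sequences are those of RefSeq (GRCm38.p6), 5′ to 3′ on the strand of the gene, and capitals mark each CG dinucleotide, the context in which most 5hmC is made.
Pik3cd chr4:149676040-149676339 minus strand: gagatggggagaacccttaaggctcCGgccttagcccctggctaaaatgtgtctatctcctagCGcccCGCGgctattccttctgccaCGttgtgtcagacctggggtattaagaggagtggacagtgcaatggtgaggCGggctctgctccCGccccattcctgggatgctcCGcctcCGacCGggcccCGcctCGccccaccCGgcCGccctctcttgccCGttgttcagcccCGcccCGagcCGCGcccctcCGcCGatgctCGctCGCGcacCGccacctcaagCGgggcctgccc
Foxo1 chr3:52268087-52268386 plus strand: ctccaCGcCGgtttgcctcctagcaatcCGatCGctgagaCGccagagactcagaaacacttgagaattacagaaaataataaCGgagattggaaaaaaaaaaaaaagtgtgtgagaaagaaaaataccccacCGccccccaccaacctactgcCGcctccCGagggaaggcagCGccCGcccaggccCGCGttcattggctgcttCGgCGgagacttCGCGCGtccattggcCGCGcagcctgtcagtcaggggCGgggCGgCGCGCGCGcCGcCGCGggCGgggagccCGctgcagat
Inpp5d chr1:87620062-87620361 plus strand: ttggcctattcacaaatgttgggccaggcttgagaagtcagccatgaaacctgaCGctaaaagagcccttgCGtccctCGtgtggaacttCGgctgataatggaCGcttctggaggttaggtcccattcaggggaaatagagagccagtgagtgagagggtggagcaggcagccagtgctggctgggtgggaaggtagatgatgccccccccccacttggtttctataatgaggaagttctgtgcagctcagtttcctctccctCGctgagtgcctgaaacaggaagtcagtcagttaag
The motif searched was CG, which reads the same on both strands. Pik3cd held 26 of them, Foxo1 31 and Inpp5d 6, beside a median of 7 over all windows, which placed them at percentiles 83.8, 90.0 and 45.7. Among the 11378 windows with at least 15 CG, 7.0% had a peak in any library and 0.24% overlapped a WT-higher region of the authors' deposited table. The remaining CpG-rich starts were those of Foxo3 (35), Pik3r1 (34), Pik3ap1 (26) and Akt1 (42).

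Foxo1 encodes the main FOXO factor of germinal center B cells. It lies on the plus strand at chr3:52268337-52350109 (gene ID 56458), a span of 81.8 kb. The table of gene models used here gives spans without exons, so exonic and intronic peaks were not told apart for any gene. Peaks covered 26.9% of the Foxo1 window in KO2, 18.0% in KO3, 32.1% in WT2 and 23.8% in WT3. The mean of 25.17% stood at percentile 99.2 among genes with a union region, whose median was 4.68%. Foxo1 was thus covered far beyond the typical gene in every library, KO included.

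The number of Foxo1 peaks was 31 in KO2, 28 in KO3, 40 in WT2 and 28 in WT3. Scaled to equal totals, 21511 and 17811 bases were covered in KO2 and KO3, and 28230 and 18710 in WT2 and WT3. WT2 stood above the other 3 libraries, and WT3 fell between the KO libraries. The log2 difference was -0.23 with a standard error of 0.21 (unadjusted p = 0.317, limma), which did not pass. It rested on WT2: without that library the difference was 0.06. The nearest peak to the start site lay 1670 bases away in KO2, 3401 in KO3, 1166 in WT2 and 1699 in WT3.

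Foxo1 peaks were broad and of moderate height. Their median width was 734, 467, 550 and 466.5 bp in KO2 and KO3 and WT2 and WT3, above the 431, 347, 406 and 408 bp of the whole lists. Their median summit fold was 3.82 in KO2, 3.63 in KO3, 4.40 in WT2 and 3.41 in WT3, below each list's own median. The tallest peak of both KO libraries was the same one, about 7 kb into the gene, with a fold of 6.53 in KO2 and 6.49 in KO3. In both WT libraries the tallest was instead the peak that starts at position 52297934, 29.9 kb into the gene, with a fold of 7.25 in WT2 and 6.05 in WT3. Peaks of at least 5-fold numbered 3, 2, 12 and 5 in KO2 and KO3 and WT2 and WT3. The share of such peaks in the whole lists was 51.7%, 35.8%, 59.1% and 47.9% in the same order, so WT2 led there too, and the part of this in the Foxo1 counts was not tested. With only peaks of at least 5-fold the Foxo1 log2 difference in coverage was -1.12 (adjusted p = 0.951, limma).

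**Figure D2:**
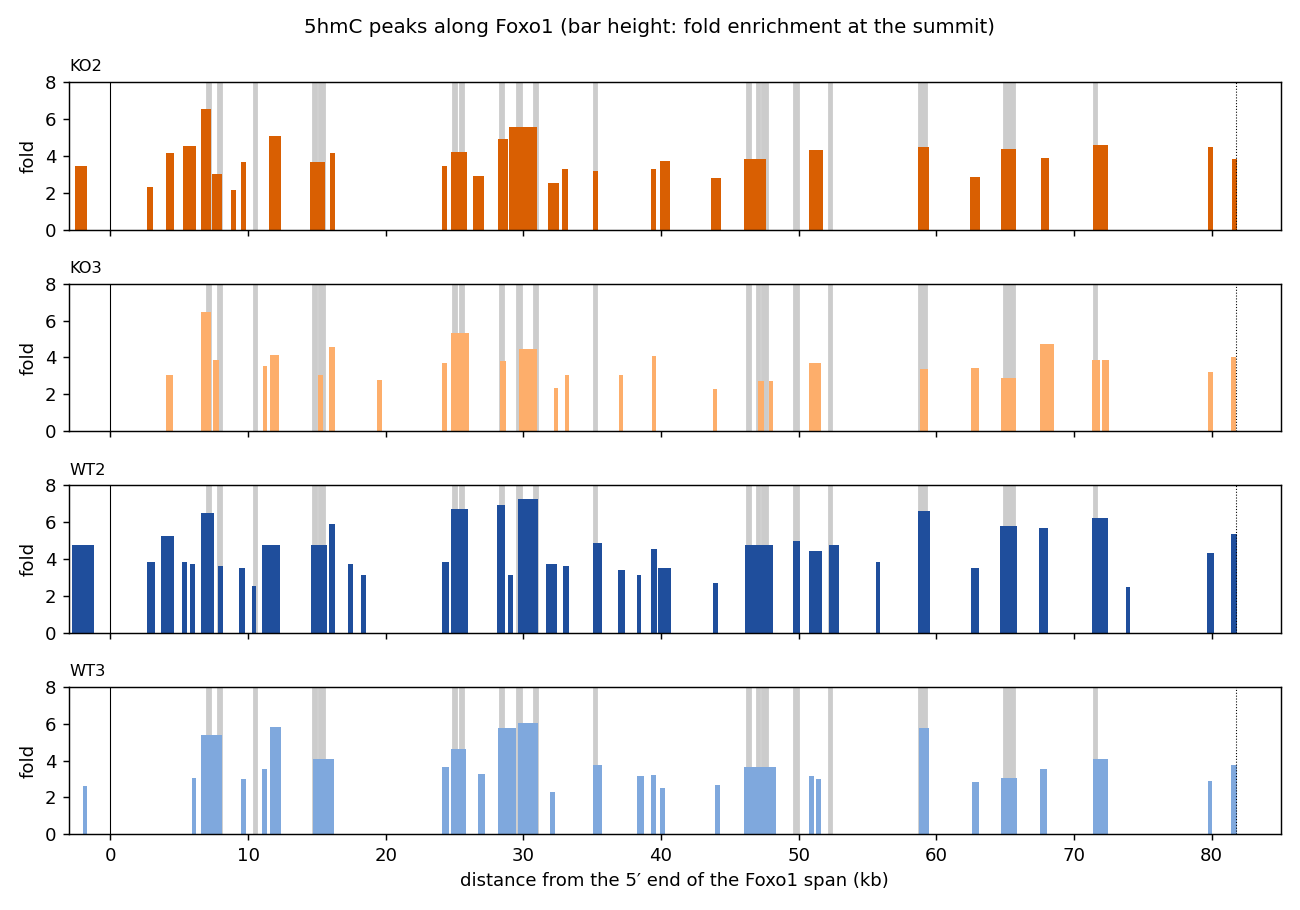
Peaks along Foxo1 in each of the 4 libraries, with the distance from the 5′ end of the gene (kb) on the horizontal axis and summit fold enrichment on the vertical axis. Grey bands are the 19 WT-higher regions of the authors' deposited table, the solid line is the 5′ end and the dotted line the 3′ end. The bands begin 7.1 kb into the gene, and most of them hold peaks in KO panels as well as WT panels.

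The authors' deposited table listed 19 WT-higher regions in Foxo1, which placed the gene at percentile 99.8 of genes with a union region, whose 95th percentile was 3 regions. Per 10 kb of covered sequence the count in the authors' deposited table was 5.83, at percentile 94.7. The part of coverage in the rank by regions was not tested. The 19 regions of the authors' deposited table lay between 7.1 and 71.6 kb from the 5′ end, and none overlapped the promoter window. Of the 38 union regions of Foxo1, 13 (34.2%) overlapped at least 1 WT-higher region of the authors' deposited table, 1 of them only beyond the window's edge.

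Most of these regions still had peaks in KO cells. A peak was present in all 4 libraries at 13 of the 19 regions of the authors' deposited table, in 3 libraries at 3 and in 1 library at 3. By library, 16 of the 19 overlapped a peak in KO2, 13 in KO3, 19 in WT2 and 16 in WT3. At the 13 regions with peaks throughout, the median fold was 4.38 in KO2, 3.88 in KO3, 6.48 in WT2 and 4.65 in WT3. WT2 held the highest fold at 11 of the 13 and KO3 the lowest at 9, while both WT libraries exceeded both KO libraries at 5. WT3 and KO2 therefore lay close together. How often both WT libraries exceed both KO libraries over all genic regions was not counted. The authors had already listed these 13 as WT-higher. Neighbouring regions of the authors' deposited table can share 1 wide peak, so these counts are not of separate peaks. Over the series, genic union regions with peaks in all 4 libraries were counted in the same way. WT2 was highest in 52.2% of the 78019 without a WT-higher region of the authors' deposited table and in 73.6% of the 8275 with one. KO3 was lowest in 64.8% of those without and 85.4% of those with one. Among such union regions of Foxo1, WT2 was highest in 7 of 10 without and 7 of 8 with one. KO3 was lowest in 2 of 10 and 5 of 8, below its shares over the series. The part of the low background of WT2 in these folds was not tested.

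Scores in the authors' deposited table, whose scale is not stated, ran from 3.93 to 10.63 in Foxo1 with a median of 5.24, beside a median of 4.77 over all its WT-higher regions. The highest score, 10.63, belonged to chr3:52318024-52318334 in the authors' deposited table, 49.8 kb into the gene. There only WT2 had a peak, with a fold of 5.00 from 50 reads over a background of 9.2. The next, with a score of 9.65 in the authors' deposited table, was chr3:52327105-52327689 at 59.1 kb. It held a peak in every library, with folds of 4.46 (55 reads) in KO2, 3.37 (39 reads) in KO3, 6.63 (63 reads) in WT2 and 5.75 (72 reads) in WT3. Here both WT libraries stood above both KO libraries in fold. The same order held in reads, which are not scaled for sequencing depth.

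A like order was found at chr3:52296648-52296961, 28.5 kb into the gene, which had a score of 8.08 in the authors' deposited table. Its folds were 4.94 and 3.79 in KO2 and KO3, and 6.94 and 5.75 in WT2 and WT3. At chr3:52339781-52340038, 71.6 kb into the gene and scored 8.51 in the authors' deposited table, the genotypes overlapped. The folds there were 4.62 and 3.88 in KO2 and KO3, and 6.21 and 4.10 in WT2 and WT3. WT3 lay between the KO libraries at this last region.

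**Figure D3:**
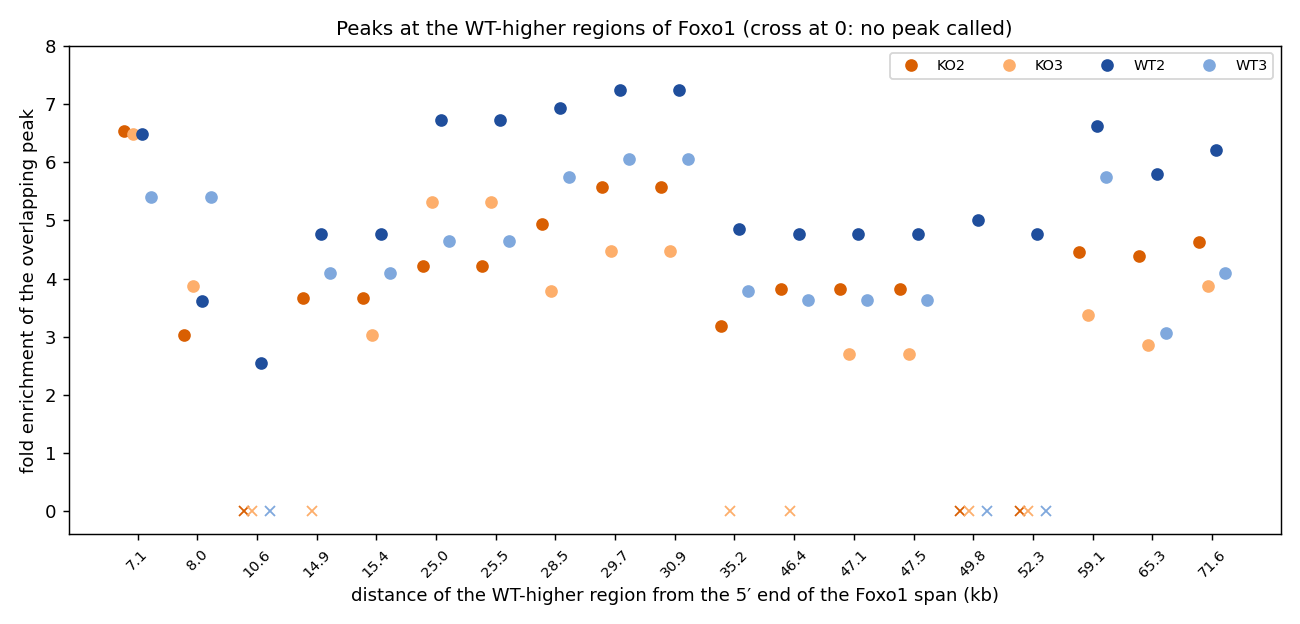
Summit fold enrichment of the peak that overlaps each of the 19 WT-higher regions of the authors' deposited table in Foxo1, per library, ordered along the gene, with a cross at 0 where the library had no peak. WT2 has a peak at all 19 and the highest fold at 11 of the 13 regions with peaks in every library, and KO3 has no peak at 6.

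The Foxo1 regions that held WT-higher calls were wide. Their median width was 1267 bp, against 509 bp for the 25 union regions without a WT-higher region of the authors' deposited table. The widest, chr3:52296385-52299417, spanned 3033 bp and held 3 such regions of the authors' deposited table. Width went with calls in the whole series: WT-higher regions of the authors' deposited table overlapped 3.5% of genic union regions of 300 to 499 bp, 13.3% of those of 500 to 999 bp, 29.7% of those of 1000 to 1999 bp and 49.2% of those of 2000 bp or more. For Foxo1 the counts with a region of the authors' deposited table were 1 of 11, 4 of 15, 6 of 10 and 2 of 2 in the same classes. The part of width in the Foxo1 count was not tested.

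When each union region was tested by itself, no stretch of the 7 genes passed. Over the 299318 regions fitted with limma, 0 were lower in KO (0%) and 0 higher (0%), and 6313 (2.11%) had an unadjusted p under 0.05. Of the 169 regions of the 7 genes 140 could be tested. Among these 82 lay lower and 55 higher in KO, whereas 39% of all regions tested lay lower and 57.6% higher, with a median log2 difference of 0.03. In the 7 genes 3 had an unadjusted p under 0.05, 1 in Foxo1 and 2 in Pik3ap1. The Foxo1 region was chr3:52314362-52316675, where peaks covered 1568 bases in KO2, 774 in KO3, 2037 in WT2 and 2277 in WT3. Both WT libraries exceeded both KO libraries there, by a log2 difference of -0.84 with a standard error of 0.22 (unadjusted p = 0.00728; adjusted p = 1.0, limma). It holds 3 WT-higher regions of the authors' deposited table. Without the filter on low coverage 4 stretches of the 7 genes passed as lower in KO and 1 as higher, without scaling 2 as lower, and with the replicate number as a term 8 as lower, so this absence of calls depends on those settings.

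Foxo3 encodes another FOXO factor under the same control by AKT. It lies on the minus strand at chr10:42181845-42276695 (gene ID 56484) and spans 94.9 kb, longer than Foxo1, yet only 7 union regions lay in its window. Coverage was 2.7% in KO2, 1.3% in KO3, 1.9% in WT2 and 1.9% in WT3, a mean at percentile 14.2. The scaled covered bases were 2493, 1479, 1974 and 1707 in the same order. Both WT libraries fell between the KO libraries, and the log2 difference was 0.06 with a standard error of 0.26 (unadjusted p = 0.816, limma). The 2 FOXO genes thus stood at opposite ends of the coverage range.

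The tallest Foxo3 peak was the same in all 4 libraries, 40.4 kb into the gene, with a fold of 7.89 in KO2, 6.40 in KO3, 7.66 in WT2 and 6.90 in WT3. The authors' deposited table placed its only WT-higher region of Foxo3 on this peak, at chr10:42236066-42236355, with a score of 3.65. KO2 had the highest fold there, and 98 reads against 81 in WT2 and 96 in WT3. KO3 had 75 reads.

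Pik3cd encodes the delta catalytic subunit of PI3K, the form that dominates in lymphocytes. It lies on the minus strand at chr4:149649168-149702566 (gene ID 18707), a span of 53.4 kb whose flank also holds the end of the neighbouring gene Clstn1. Peaks covered 15.4% of the window in KO2, 9.7% in KO3, 16.8% in WT2 and 15.3% in WT3. The mean of 14.29% was at percentile 94.4. Scaled covered bases were 8237 and 6466 in KO2 and KO3, and 9871 and 8060 in WT2 and WT3. KO2 lay above WT3, so the genotypes overlapped, and the log2 difference was -0.28 with a standard error of 0.16 (unadjusted p = 0.136, limma).

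The authors' deposited table listed 7 WT-higher regions in Pik3cd, at percentile 98.4 of genes, and 6 of its 19 union regions (31.6%) overlapped one. Per 10 kb of covered sequence this came to 6.12 regions of the authors' deposited table, above the 5.83 of Foxo1. Unlike in Foxo1, most of the regions lacked a peak in some library: of the 7 in the authors' deposited table, 2 had peaks in all 4 libraries, 1 in 3, 1 in 2, 2 in 1 and 1 in none. Their number with a peak was 3 in KO2, 2 in KO3, 6 in WT2 and 4 in WT3. A region with no peak at all, chr4:149660138-149660474, carried a score of 3.82 in the authors' deposited table.

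The region of highest score was chr4:149657151-149657448 (9.55 in the authors' deposited table), where only WT2 had a peak, with a fold of 3.83 from 36 reads. Close to the 5′ end of the span, 0.5 kb in, chr4:149701842-149702302 was scored 6.70 in the authors' deposited table. Its folds were 5.02 in KO2, 4.56 in KO3, 7.66 in WT2 and 5.82 in WT3, both WT libraries above both KO libraries. The region at the CpG-rich start printed above was chr4:149675818-149676116, scored 5.46 in the authors' deposited table. The fold there was 3.03 (37 reads) in KO2, 5.07 (48 reads) in WT2 and 3.39 (42 reads) in WT3, and KO3 had no peak. KO3, the library with the smallest covered length, had its nearest peak 8125 bases from this start. The tallest Pik3cd peak lay 17.9 kb in for KO2 (fold 7.43) and WT3 (9.34) and 18.1 kb in for KO3 (5.89), whereas in WT2 it lay at 38.6 kb (7.97).

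Pik3r1 encodes the alpha regulatory subunit of PI3K, which holds the catalytic subunit and docks it to phosphorylated receptors. It lies on the minus strand at chr13:101680761-101768217 (gene ID 18708) and spans 87.5 kb. Coverage was near that of a typical gene, at 4.9% in KO2, 3.9% in KO3, 6.4% in WT2 and 6.2% in WT3 (mean 5.35%, percentile 57.8). Scaled covered bases were 4215 and 4136 in KO2 and KO3, and 5972 and 5184 in WT2 and WT3. Both KO libraries lay below both WT libraries, by a log2 difference of -0.40 with a standard error of 0.12 (unadjusted p = 0.0177; adjusted p = 0.9999, limma). The difference did not pass. It ran from -0.50 to -0.30 when each library was left out, and its sign could not change because the genotypes did not overlap.

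Peaks of Pik3r1 numbered 9 in each KO library and 12 in each WT library. Only 5 of its 17 union regions (29.4%) had a peak in all 4 libraries, the lowest share of the 7 genes. The authors' deposited table listed 4 WT-higher regions, all scored above 5, between 39.2 and 68.7 kb from the 5′ end. None had a peak in every library: by library, 1 of the 4 regions of the authors' deposited table had a peak in KO2, 0 in KO3, 3 in WT2 and 4 in WT3. These were low peaks. The highest-scored, chr13:101728945-101729157 (7.09 in the authors' deposited table), had a fold of 3.56 in WT2 and 4.41 in WT3 and no peak in either KO library. The same held for chr13:101701849-101702276 (5.31 in the authors' deposited table), with 29 reads at the summit in WT2 and 37 in WT3. At chr13:101707236-101707827 (5.92 in the authors' deposited table) KO2 also had a peak, with a fold of 3.03, beside 4.45 in WT2 and 3.15 in WT3.

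The tall peaks of Pik3r1 carried no such call. The peak 38.7 kb into the gene was the tallest of KO3 (5.13) and of WT2 (9.42), and the peak at 12.5 kb the tallest of KO2 (7.20) and WT3 (6.39). Both were present in all 4 libraries and overlapped no region of the authors' deposited table.

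Pik3ap1 encodes BCAP, an adaptor that links the B cell receptor to PI3K. It lies on the minus strand at chr19:41272541-41385102 (gene ID 83490) and spans 112.6 kb. It had the most union regions of the 7 genes (47), of which 25 (53.2%) had a peak in all 4 libraries. Peaks covered 21.7% of the window in KO2, 13.5% in KO3, 24.1% in WT2 and 20.3% in WT3, a mean of 19.91% at percentile 97.9. Scaled covered bases were 23652 and 18208 in KO2 and KO3, and 28855 and 21689 in WT2 and WT3. As in Foxo1, WT2 was highest and KO3 lowest, and the genotypes overlapped (log2 difference -0.27, standard error 0.18, unadjusted p = 0.195, limma).

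The tallest Pik3ap1 peak was the same in every library and lay towards the 3′ end, near 108.6 kb, with folds of 12.11 and 8.93 in KO2 and KO3 and of 12.88 and 11.72 in WT2 and WT3. These were the highest folds within the 7 genes in 3 of the 4 libraries, and the peak overlapped no region of the authors' deposited table. In KO3 the highest was a peak of Inpp5d (9.10). The authors' deposited table listed 9 WT-higher regions in Pik3ap1 (percentile 99.0), 1 of them beyond the 3′ end, and 8 of the 47 union regions (17.0%) overlapped one. KO3 lacked most of them: a peak was present at 6 of the 9 regions of the authors' deposited table in KO2, 1 in KO3, 8 in WT2 and 7 in WT3. Over all Pik3ap1 union regions, 7 lacked a peak in KO3 alone.

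The highest-scored region was chr19:41355044-41355285 (8.75 in the authors' deposited table), with folds of 3.11 in KO2, 4.76 in WT2 and 4.10 in WT3 and no peak in KO3. At the next, chr19:41346218-41346474 (7.61 in the authors' deposited table), the overlapping peak had folds of 6.45 and 5.65 in KO2 and KO3 and of 6.21 and 5.04 in WT2 and WT3, so that the KO libraries were not lower. The summit of that wide peak lay outside the region in all 4 libraries. A pair of Pik3ap1 regions had the unadjusted p values mentioned above, in opposite directions. At chr19:41381149-41382215 the covered bases were 1029, 677, 605 and 530 in KO2 and KO3 and WT2 and WT3 (log2 difference 0.61, standard error 0.15, unadjusted p = 0.00435, adjusted p = 1.0, limma). At chr19:41374550-41375387 they were 378, 273, 761 and 507 in the same order (log2 difference -0.77, standard error 0.25, unadjusted p = 0.0306, adjusted p = 1.0, limma).

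**Figure D4:**
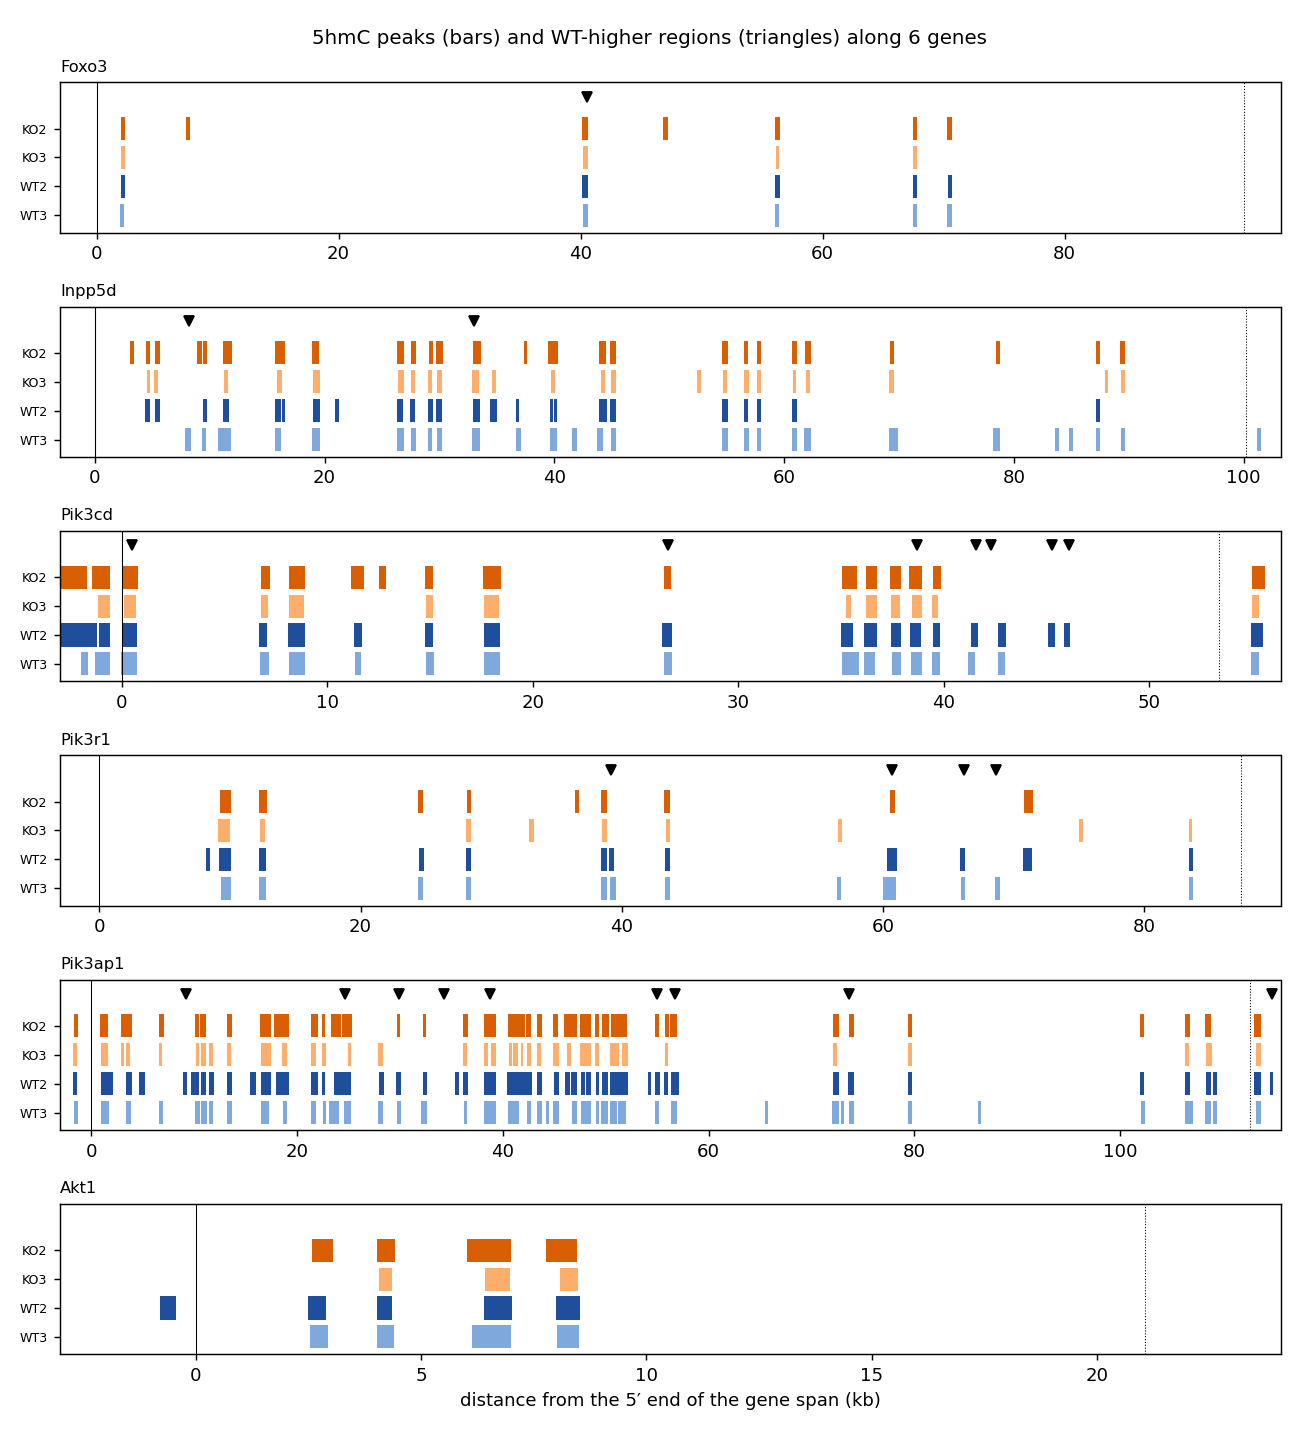
Peaks along the other 6 genes, with the distance from the 5′ end of the span (kb) on the horizontal axis, a row of bars for each library and triangles at the WT-higher regions of the authors' deposited table. Triangles number 9 in Pik3ap1, 7 in Pik3cd, 4 in Pik3r1, 2 in Inpp5d, 1 in Foxo3 and 0 in Akt1, and rows of the genotypes share most of their bars.

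Inpp5d encodes SHIP1, a lipid phosphatase that opposes PI3K. It lies on the plus strand at chr1:87620312-87720510 (gene ID 16331) and spans 100.2 kb. It held 36 union regions, nearly as many as Foxo1 over a longer span, and 15 of them (41.7%) had a peak in all 4 libraries. Coverage was 12.3% in KO2, 8.4% in KO3, 10.3% in WT2 and 13.0% in WT3 (mean 11.02%, percentile 88.9). Scaled covered bases were 11984 and 10149 in KO2 and KO3, and 11023 and 12458 in WT2 and WT3. The genotypes overlapped, and the log2 difference was -0.09 with a standard error of 0.12 (unadjusted p = 0.492, limma). Inpp5d thus had much 5hmC and the second smallest difference in size of the 7 genes.

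The authors' deposited table listed only 2 WT-higher regions there, in 2 of the 36 union regions (5.6%), below the share of 7.26% for all genic union regions. One, chr1:87628287-87628755 (score 6.82 in the authors' deposited table), held a low peak of WT3 alone, with a fold of 2.36. The other, chr1:87653220-87653459 (scored 3.82 in the authors' deposited table), was within one of the tallest peaks of the gene, with folds of 11.23 and 7.67 in KO2 and KO3 and of 11.32 and 10.96 in WT2 and WT3. KO3 was low there, and KO2 was between the WT libraries. The other tall peaks, 19.2 kb into the gene (9.10 in KO3) and 54.8 kb into it (11.60 in WT2), overlapped no region of the authors' deposited table.

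Akt1 encodes the kinase that links PI3K to the FOXO factors. It is the shortest of the 7 genes, at 21.1 kb on the minus strand of chr12:112653821-112674884 (gene ID 11651). It held 5 union regions, 3 of them (60.0%) with a peak in all 4 libraries, and the authors' deposited table listed 0 WT-higher regions. Coverage was 10.1% in KO2, 5.1% in KO3, 8.8% in WT2 and 8.5% in WT3. Scaled covered bases were 2361 and 1478 in KO2 and KO3, and 2252 and 1959 in WT2 and WT3. KO3 was lowest and KO2 highest, so both WT libraries lay between them (log2 difference -0.15, standard error 0.24, unadjusted p = 0.551, limma). The tallest Akt1 peak had a fold of 7.65 in KO2 and 7.14 in WT2, both 6.7 kb into the gene, and of 5.48 in KO3 and 6.20 in WT3, both about 8 kb into it.

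The wider pathway, 99 genes in 5 lists that include the 7, showed the same absence of calls and an uneven spread of WT-higher regions. Of the 87 genes that could be tested 54 lay lower and 33 higher in KO, beside 52.3% lower among all genes tested. Their median log2 difference was -0.05. None of the 87 passed, and 7 had an unadjusted p under 0.05 (limma), beside 4.22% of all genes tested. In the authors' deposited table, a total of 174 WT-higher regions fell in 50 of the 99 genes, beside 28.3% of all genes with a union region. Of the union regions of the 99 genes, 11.5% overlapped one. KO-higher regions numbered 0, beside 0.104% of genes with one. The share of union regions with a WT-higher region of the authors' deposited table was 16.4% for the FOXO factors and their regulators, 16.0% for FOXO target genes and 14.7% for PI3K subunits and adaptors. It was 7.4% for lipid phosphatases and 6.0% for the AKT and mTOR branch, near the 7.26% of all genic union regions in the authors' deposited table. No test was made between these lists. Foxo1 alone gave 19 of the 32 regions of the FOXO list in the authors' deposited table, and Pik3ap1, Pik3cd and Pik3r1 gave 9, 7 and 4 of the 44 of the PI3K list. Bach2 alone gave 33 of the 58 regions of the FOXO target list, and 25 of its 45 union regions that overlapped one.

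Among PI3K adaptors, Blnk, a scaffold below the B cell receptor, had 10 WT-higher regions in the authors' deposited table, and the kinase gene Syk had 5. Among lipid phosphatases, Inpp4b had 15 in the authors' deposited table, over 120 union regions. The log2 difference in coverage of Inpp4b was 0.04 (standard error 0.05, unadjusted p = 0.453, limma). In the AKT and mTOR branch no gene exceeded 3 regions of the authors' deposited table, and Prr5, a subunit of the mTOR complex that phosphorylates AKT, had 3 and a log2 difference of -0.62 (standard error 0.16, unadjusted p = 0.0101, limma). Of the FOXO regulators, Usp7, a deubiquitinase of FOXO proteins, had 4 in the authors' deposited table.

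FOXO target genes held the most, mainly through 1 gene. Bach2, a repressor that holds back plasma cell differentiation, had 33 WT-higher regions in the authors' deposited table, in 23.6% of its union regions, and a log2 difference of -0.21. Cxcr4, the dark zone chemokine receptor, had 3 in the authors' deposited table among 5 union regions, and the insulin receptor gene Insr had 4. The migration receptor genes S1pr1 and Ccr7 had 2 each in the authors' deposited table. S1pr1 had only 1 union region and Ccr7 had 6, and both genes had 0 covered bases in KO3. Of the 23 target genes that could be tested 10 lay lower and 13 higher in KO, beside 52.3% lower among all genes tested. Their median log2 difference was 0.01. An unadjusted p under 0.05 (limma) was met by 4, in both directions, and by 4.22% of all genes tested. These 4 are named here after their values were seen. Gadd45a, a stress response gene, had 387 and 356 scaled covered bases in KO2 and KO3 and 1254 and 1072 in WT2 and WT3 (log2 difference -1.25, standard error 0.22, unadjusted p = 0.00189, limma). The catalase gene Cat had 2308, 2133, 3298 and 2818 in the same order (-0.43, standard error 0.14, unadjusted p = 0.0272, limma). In the other direction, Btg1, an antiproliferative gene, had 1504, 1824, 925 and 783 (0.82, standard error 0.19, unadjusted p = 0.00621, limma), and the cyclin gene Ccnd2 had 1090, 1847, 492 and 629 (1.10, standard error 0.28, unadjusted p = 0.0104, limma). The genotypes did not overlap in any of the 4, an arrangement that held with KO lower in 16.6% and with KO higher in 14% of all genes tested. The 4 were picked by their p, which favours this arrangement, so it is no further finding. None of these genes passed after adjustment.

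The genes whose coverage over the 4 libraries was most like that of Foxo1, among 1718 genes with at least 20 union regions, were Ptk2b, Ptprj and Swap70. Likeness was the Euclidean distance of log2 scaled coverage over the 4 libraries, which was 0.18 for Ptk2b, 0.20 for Ptprj and 0.21 for Swap70. Ptk2b had 11 WT-higher regions in the authors' deposited table, Ptprj 17 and Swap70 10.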

How the data were processed

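The tools were BWA (version 0.7.12-r1039) and MACS2 (version 2.1.0.20151222) on build GRCm38.p3, per the submitters' processing notes. Settings are not given in the sources used here. The authors deposited a peak list per pulled-down library with a fold enrichment (a ratio to the local background), a −log10 p-value, a −log10 q-value and a score for each peak, so peaks had been called per library. The authors also deposited tables of differential regions with a score, whose names per the file headers are enrichment in WT or in KO cells. Their scale, caller and compared libraries are not given in the sources used here. Other deposited columns hold positions and summits.

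Gene spans, start sites and promoter sequences came from RefSeq (GRCm38.p6, with the same primary chromosomes as GRCm38.p3), and all 7 genes matched by symbol. Peaks on primary chromosomes were used. Bases under peaks in each gene window (span plus 2 kb each side) and in each union region (peaks merged over the 4 lists) were scaled to equal totals and compared with limma 3.58.1 in R 4.3.3 (trend, robust, Benjamini-Hochberg, threshold 0.05) as log2(bases + 200) in genes averaging 500 or more and log2(bases + 50) in regions averaging 100 or more. Log2 differences are on that scale and understate those of sparsely covered genes. At least 1 bp of overlap counted as shared. The test was checked on simulated data. Reads at a summit and its background were recovered from the deposited fold and −log10 p under the Poisson test of MACS2, giving whole reads within 0.001 of the deposited −log10 p for at least 99.9974% of peaks, and cover counting error only. With 2 libraries against 2 an exact permutation test cannot go below p = 0.333 and was not used. Other scalings, filters, pseudocounts, peak sets, windows, a replicate term and leaving out each library were tried. The 7 genes and all lists were chosen with earlier results of these data known. From the lists, genes were named when among the 10 with most WT-higher regions of their list. Not all of those are described, and some are not reported here. Peaks and regions named within a gene are those of highest fold or score. Others, including all union regions with an unadjusted p under 0.05, were chosen after their values were seen.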

Additional observations from a re-analysis of the deposited data

How the results depend on the processing

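No gene passed under any alternative. The unadjusted p under 0.05 was met by 341 (peaks of at least 5-fold) to 1149 genes (without KO2), and the replicate block gave 925. Same-numbered libraries correlated at r = 0.0896 in their deviations over 13997 genes, so the numbers were not read as pairs. Regions were less stable: with no filter 1616 were lower and 1202 higher in KO, with no scaling 1161 and 246, and with the replicate block 6818 and 4731, against 0 and 0, and 0 without any 1 library. In the 7 genes this called 4 lower and 1 higher with no filter, 2 lower with no scaling and 8 lower with the replicate block. The cause was not tested. Without scaling the median gene stood at -0.10. Gene differences kept their sign in 65 of 77 alternatives. Those that reversed were Foxo3 with no scaling (-0.02), at 5-fold (-0.14) and with equal peak numbers (-0.15), and at 5-fold Inpp5d (0.09), Pik3ap1 (0.15) and Akt1 (0.34). The cause was not tested. Leaving out each library gave -0.52 to 0.06 for Foxo1 (0.06 without WT2), -0.28 to 0.40 for Foxo3 (-0.28 without KO2 and -0.03 without WT3), -0.20 to 0.03 for Inpp5d (0.03 without KO3 and 0.00 without WT3), -0.45 to -0.11 for Pik3cd, -0.50 to -0.30 for Pik3r1, -0.47 to -0.06 for Pik3ap1 and -0.45 to 0.15 for Akt1 (0.15 without KO3). When the authors' deposited table was held to scores of 5 or more, WT-higher regions numbered 11 in Foxo1, 0 in Foxo3, 1 in Inpp5d, 3 in Pik3cd, 4 in Pik3r1 and 5 in Pik3ap1. With peaks of at least 5-fold, 16 union regions in place of 82 had a peak in all 4 libraries. Differences below the spread of 2 libraries were not detectable at this number of libraries.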
